A study of Arundinella anomala and Arundinella fluviatilis and Arundinella hirta with 8 samples.

Results

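Leaves of *Arundinella hirta* and *Arundinella anomala*, a pair of grasses of the same genus, were compared by RNA sequencing. Each species was represented by 1 library, so 2 of the 8 libraries in the series enter the comparison. Both libraries came from total RNA of the mature 3rd leaf of wild type plants, grown under 16 h of light and 8 h of dark at 22 °C, with no treatment named. The other 6 libraries, used below only as a backdrop, came from *A. fluviatilis*, *A. nepalensis*, *A. pubescens*, *Bothriochloa ischaemum*, *Capillipedium parviflorum* and *Imperata cylindrica* and were grown and prepared in the same way. Levels are FPKM, fragments scaled by the length of the sequence and by library size, which the authors deposited on maize gene models. Protein models of a gene were summed, giving 26274 genes. With 1 library a species there is no spread between replicates, no test and no p-value. Every difference below is one between these 2 libraries, and how far 2 libraries of 1 species would differ is unknown. Whole leaf was sampled, so fewer cells of a type and less RNA per cell cannot be told apart.

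C4 grasses concentrate CO2 around Rubisco. PEP carboxylase in mesophyll cells fixes bicarbonate into 4-carbon acids, a decarboxylating enzyme releases CO2 from them beside Rubisco, and pyruvate orthophosphate dikinase regenerates PEP. *Arundinella* is known for strands of distinctive cells between its veins, which work in the way bundle sheath cells do. A value of 0 is called "listed at 0" here, since it can be a failed estimate as well as a silent gene. Of a pair of genes that nearly every cell uses, actin (GRMZM2G126010) was at 180 FPKM in *A. hirta* and 268 in *A. anomala*. The other, cytosolic glyceraldehyde-3-phosphate dehydrogenase (GRMZM2G046804), was listed at 0 in *A. hirta* and at 747 FPKM in *A. anomala*.

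The first question was which genes each leaf listed at all. *A. hirta* listed 10697 genes above 0 and *A. anomala* 20468. The lists were nested to a large extent. The 9753 genes above 0 in both made up 91.2% of the *A. hirta* list and 47.65% of the *A. anomala* list. A further 944 genes were above 0 only in *A. hirta* and 10715 only in *A. anomala* (52.4% of its list), and 4862 were above 0 in neither. Summed over all genes, *A. hirta* held 319415 FPKM and *A. anomala* 801499, a ratio of 0.399. Genes listed in both carried 95.8% of the *A. hirta* sum and 60.2% of the *A. anomala* sum. The depth of either library is unknown, so no interval can be set on these counts, and the part of depth in them was not tested.

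Genes that *A. hirta* listed at 0 were not the weak ones alone. Among genes under 1 FPKM in *A. anomala*, 32.9% were above 0 in *A. hirta*. That share was 49.7% from 1 to 10 FPKM, 46.3% from 10 to 100, 62.2% from 100 to 1000 and 67.7% for the 62 genes at 1000 or more. It therefore rose unevenly with level and left a large gap at the top. Read the other way, 82.6% of *A. hirta* genes under 1 FPKM were above 0 in *A. anomala*, 95.7% of those from 10 to 100 and 38 of the 39 at 1000 or more. As a measure of the same kind within the genus, *A. fluviatilis* listed 60.9% of the *A. anomala* genes under 1 FPKM and 95.9% of those from 10 to 100. The number of protein models per gene made little difference to the gap. *A. hirta* listed 47.2% of *A. anomala* genes with 1 model, 48.1% of those with 2 and 49.9% of those with 3 or more.

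**Figure D1:**
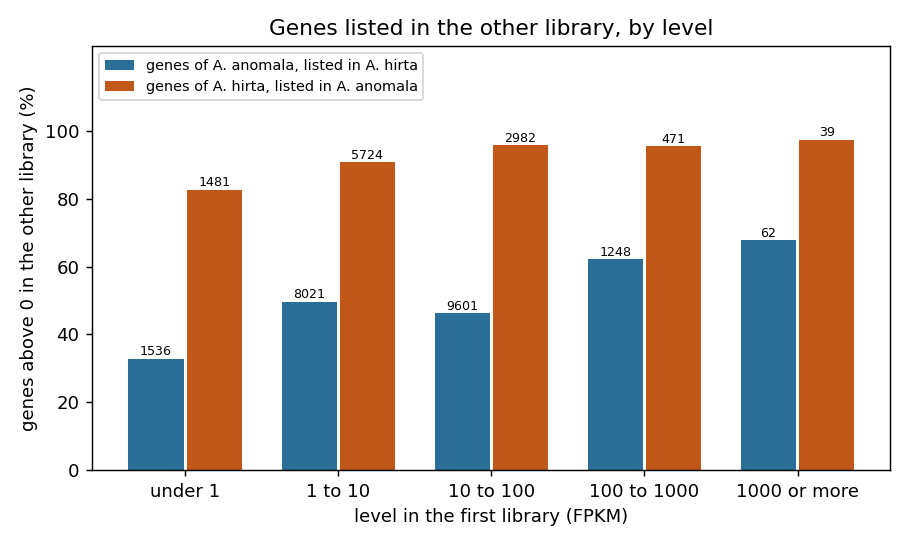
Percentage of genes above 0 in the other library (y axis) by level in the first library in FPKM (x axis), with the number of genes over each bar. Blue bars, *A. anomala* genes found in *A. hirta*, stay between 32.9% and 67.7%, while orange bars, *A. hirta* genes found in *A. anomala*, stay between 82.6% and 97.4%.

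Abundant genes of 1 leaf that the other listed at 0 were then taken apart from the rest. At 100 FPKM or more, 492 of the 1310 genes of *A. anomala* were listed at 0 in *A. hirta* (37.6%). In the reverse direction, 22 of the 510 genes of *A. hirta* were listed at 0 in *A. anomala* (4.31%). With both libraries rescaled to the same sum there were 682 and 61 such genes, so the smaller set depends on the scaling. These values chose the sets and are given as a description. The weakest members stood at 100.07 FPKM in the *A. anomala* set and 101.6 in the *A. hirta* set. The strongest genes just left out stood at 99.8 and 99.4. A few genes came close to joining: 27 of the genes at 100 FPKM or more in *A. anomala* were above 0 but under 1 FPKM in *A. hirta*, against 0 in the reverse direction.

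The same count was made for every pair within the genus. Of genes at 100 FPKM or more, *A. hirta* listed at 0 between 37.6% (those of *A. anomala*) and 46.9% (those of *A. nepalensis*). Where *A. anomala* was the library at 0, the shares ran from 3.4% for *A. fluviatilis* genes to 6.5% for *A. nepalensis* genes, with 4.3% for *A. hirta* genes. The excess of zeros thus sat with the *A. hirta* library in all 4 of its pairs and was not special to the pairing with *A. anomala*.

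The 492 genes abundant in *A. anomala* alone had a median of 169 FPKM there, and 20 of them reached 1000. The other *Arundinella* libraries, whose values had no part in the choice, held nearly all of these genes. *A. fluviatilis* listed 465 of them above 0, *A. pubescens* 457 and *A. nepalensis* 438, with medians of 115, 109 and 92.5 FPKM. All 3 of these libraries listed 406 of the 492 (82.5%), and 5 genes were above 0 in none of them. Those 5 were also at 0 in the other genera. For comparison, all 3 listed 723 of the 818 genes that were at 100 FPKM or more in *A. anomala* and above 0 in *A. hirta* (88.4%).

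The other genera split. *B. ischaemum* listed 29.7% of the 492 genes and *C. parviflorum* 27.8%, against 59.8% and 52.1% of the 818 genes that *A. hirta* also listed. *I. cylindrica* listed 57.9% of the 492 and 58.4% of the 818, almost the same share. The gap between the sets of genes was thus wide in *B. ischaemum* and *C. parviflorum* and 0.51 percentage points in *I. cylindrica*, as a description of these libraries. Over *A. anomala* genes of any level the order was the same. *B. ischaemum* listed 27.3% of the 10715 genes absent from the *A. hirta* list and 56.7% of the 9753 present in both, *C. parviflorum* 22.8% and 48.5%, and *I. cylindrica* 44.6% and 46.9%.

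**Figure D2:**
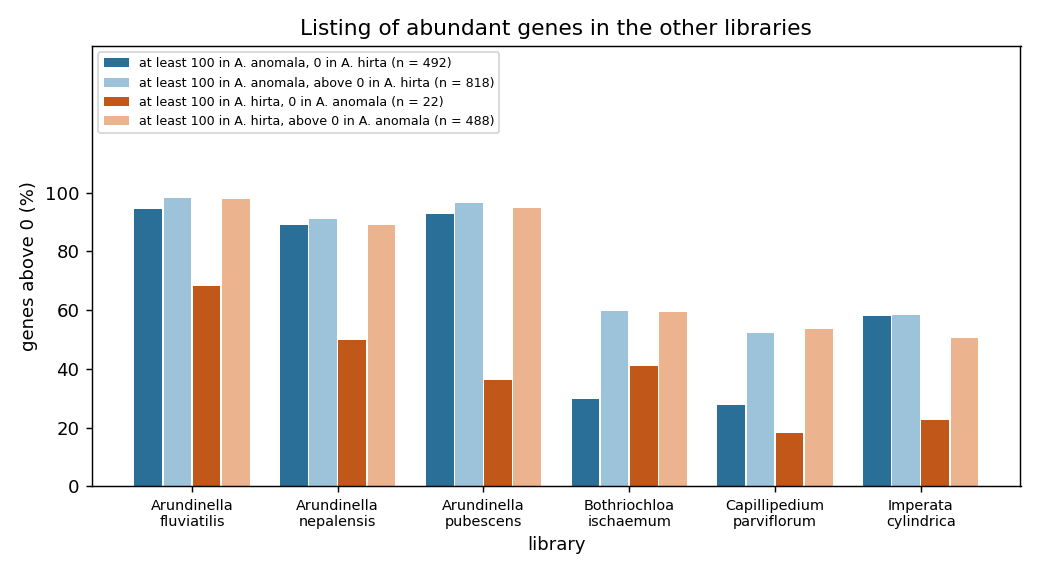
Percentage of genes above 0 (y axis) in each of the other 6 libraries (x axis) for abundant genes of *A. anomala* (blue) and *A. hirta* (orange), dark where the gene was listed at 0 in the other of the pair and pale where it was above 0. Dark and pale blue bars are close in the *Arundinella* libraries and *I. cylindrica* (57.9% and 58.4%) and apart in *B. ischaemum* (29.7% and 59.8%) and *C. parviflorum* (27.8% and 52.1%).

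The strongest member of the 492 with no name in the files was GRMZM2G008263. It stood at 2823 FPKM in *A. anomala*. *A. fluviatilis* had 1750 FPKM, *A. pubescens* had 1401 and *A. nepalensis* had 293. It was listed at 0 in *A. hirta* and in the 3 other genera. All *Arundinella* libraries but *A. hirta* were thus high for this gene. The C4 form of PEP carboxylase was the fourth strongest of the set and is described with the C4 enzymes.

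The 22 genes abundant in *A. hirta* alone were less widely shared. Their median was 158 FPKM in *A. hirta*, and 1 of them passed 1000. *A. fluviatilis* listed 15 of the 22 above 0, *A. nepalensis* 11 and *A. pubescens* 8, with 10, 7 and 7 of them at 10 FPKM or more. All 3 listed 6 of the 22, and none of the 3 listed 5. In the other genera, *B. ischaemum* had 9 above 0, *C. parviflorum* 4 and *I. cylindrica* 5. The 488 genes at 100 FPKM or more in *A. hirta* and above 0 in *A. anomala* were listed by *A. fluviatilis* in 97.7% of cases, by *A. pubescens* in 94.7% and by *A. nepalensis* in 89.1%. The strongest of the 22 was GRMZM2G358009, unnamed in the files, at 2286 FPKM in *A. hirta*. *C. parviflorum* held 560 FPKM, and the remaining 6 libraries, all other *Arundinella* included, listed it at 0.

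Levels were compared over the 9753 genes above 0 in both leaves. The median gene was at a log2 ratio of −0.85 (*A. hirta* over *A. anomala*), which is 1.81-fold lower in *A. hirta*, with quartiles of −2.08 and 0.18. *A. hirta* had the higher value for 2850 genes (29.2%). The sign of this shift depends on the scaling of the libraries. With each library rescaled to the same sum the median was 0.47, and after quantile normalization 0.21. Differences of single genes are therefore also given relative to the median gene, where the ratio of the median gene is taken off.

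At a fixed fold of 4, 2555 genes were higher in *A. anomala* (26.2%) and 396 in *A. hirta* (4.06%). Relative to the median gene these counts were 1509 (15.5%) and 1018 (10.4%). The lean towards *A. anomala* was thus much reduced by the centring but remained, whereas with equal sums it turned to 1121 genes against 1595. The ratio followed no single trend with level. Grouped by the geometric mean of both values, the 447 genes under 1 FPKM had a median log2 ratio of −0.23. The 5198 genes from 1 to 10 FPKM stood at −1.02 and the 3600 genes from 10 to 100 at −0.79. The 478 genes from 100 to 1000 stood at −0.34 and the 30 genes above that at 0.40.

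**Figure D3:**
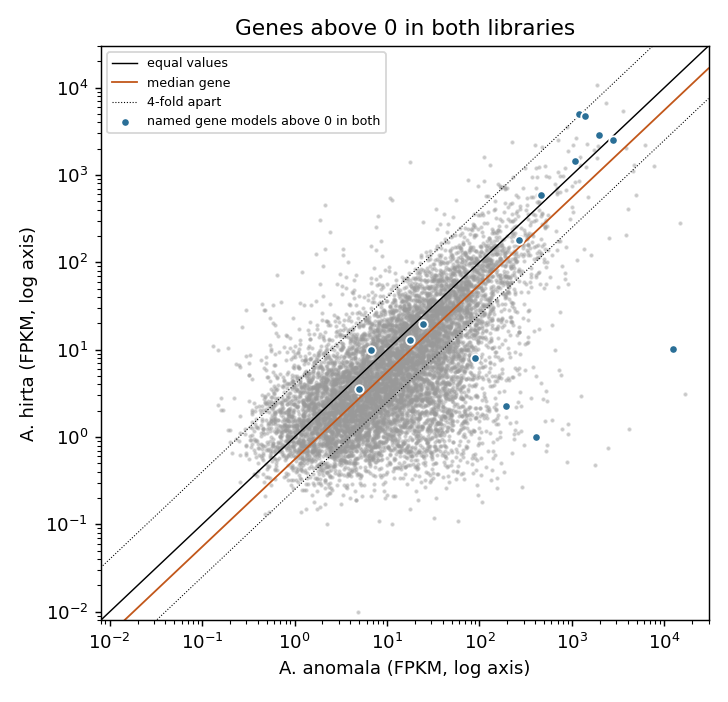
Levels of the 9753 genes above 0 in both libraries, *A. anomala* on the x axis and *A. hirta* on the y axis, both in FPKM on log axes, with each gene a grey point and the named gene models in blue. The orange line of the median gene runs 0.85 log2 units below the line of equal values, and more genes lie below the lower 4-fold line (2555) than above the upper one (396).

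The extremes were far apart. GRMZM2G003409, unnamed in the files, had the highest level of any gene in *A. anomala*, at 16642 FPKM, and was at 3.14 FPKM in *A. hirta*, a log2 ratio of −12.37. *A. pubescens* had 12.1 FPKM, *A. fluviatilis* 3.87 and *A. nepalensis* 0.98, and the other genera were under 1 FPKM. For this gene *A. anomala*, not *A. hirta*, was the library that stood apart. In the other direction GRMZM2G102471, also unnamed, was at 452 FPKM in *A. hirta* and 2.11 in *A. anomala*, a log2 ratio of 7.74. *A. fluviatilis*, *A. nepalensis* and *A. pubescens* held 492, 985 and 485 FPKM. The gene was at 416 in *B. ischaemum* and 552 in *C. parviflorum*, and listed at 0 in *I. cylindrica*. Here too the low value of *A. anomala* was the unusual one within the genus.

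The spread of ratios was set beside that of the other pairs of *Arundinella* libraries. The interquartile range of the log2 ratio was 2.26 between *A. hirta* and *A. anomala*. It ran from 2.14 to 2.85 over the 4 pairs with *A. hirta* and was at most 2.20 over the 6 pairs without it. After centring on each pair's median gene, 25.9% of genes were 4-fold or more apart between *A. hirta* and *A. anomala*, against 12.5% between *A. anomala* and *A. fluviatilis* and 13.4% between *A. anomala* and *A. pubescens*. Pairs with *A. nepalensis* lay between 21.5% and 34.8%. Spearman's rho across the 9753 genes was 0.605, as a description, since genes of 1 library share its depth and are not independent replicates. For *A. anomala* it was 0.814 with *A. fluviatilis*, 0.790 with *A. pubescens* and 0.647 with *A. nepalensis*, over other and longer lists of genes. On the same 7370 genes above 0 in all 5 *Arundinella* libraries the values were 0.595, 0.823, 0.801 and 0.614. There *A. fluviatilis* with *A. nepalensis* had 0.586, so a rho this low was not particular to pairs with *A. hirta*. The interquartile ranges for *A. anomala* with *A. hirta*, *A. fluviatilis* and *A. pubescens* were 2.26, 1.496 and 1.53. On these genes the interquartile range ran from 2.10 to 2.81 over the 4 pairs with *A. hirta* and up to 2.33 over the 6 without it, so the ranges of the 2 kinds of pair overlapped. The widest without *A. hirta* was *A. fluviatilis* with *A. nepalensis*. By levels *A. anomala* was closer to *A. fluviatilis* and *A. pubescens* than to *A. hirta*, although no second library of a species shows how far repeat libraries would differ.

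**Figure D4:**
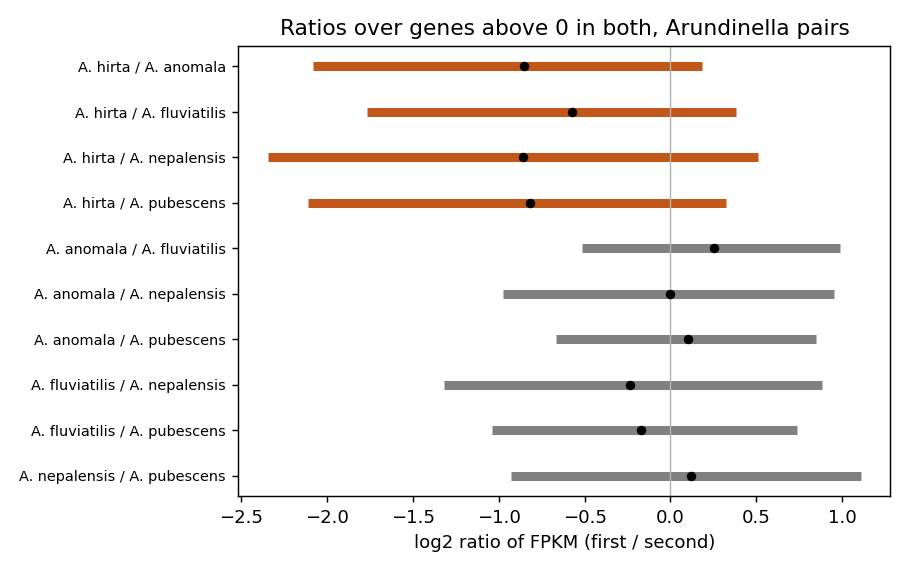
Log2 ratio of FPKM (x axis) over genes above 0 in both libraries for the 10 pairs of *Arundinella* libraries (y axis), with the median as a point and the quartiles as a bar. The 4 pairs with *A. hirta* (orange) have medians from −0.86 to −0.57, and the 6 others (grey) from −0.23 to 0.25.

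For genes 4-fold apart, the remaining *Arundinella* libraries show which of the 2 leaves was the less usual. Of the 2555 genes higher in *A. anomala*, 2476 were above 0 in *A. fluviatilis*, and there 76.5% were closer on the log2 scale to *A. anomala* than to *A. hirta*. The share was 82.6% in *A. pubescens* and 73.8% in *A. nepalensis*. With each library centred on its median these shares were 65.8%, 69.6% and 62.8%. *A. hirta* was thus the less usual leaf for most of the genes compared on either scale. The genes were chosen by their ratio before centring, so the centred shares are not a separate check. Genes at 0 in the third library (79, 103 and 397) are left out of these shares. Counted as closer to *A. hirta*, a setting chosen like the centring after seeing the data, they bring the shares before centring to 74.1%, 79.3% and 62.3%. Such shares over all genes were not taken. Over genes above 0 in every *Arundinella* library, rho with *A. fluviatilis*, *A. pubescens* and *A. nepalensis* was 0.823, 0.801 and 0.614 for *A. anomala*. For *A. hirta* it was 0.627, 0.551 and 0.439. The majority is therefore not shown to be particular to the 4-fold genes. For the 396 genes higher in *A. hirta* the answer depended on the handling. *A. fluviatilis* was closer to *A. hirta* for 56.0% of the 348 genes it listed, *A. pubescens* for 54.2% of 334 and *A. nepalensis* for 57.0% of 279. After centring these shares were 43.7%, 43.1% and 45.9%. With the 48, 62 and 117 genes at 0 counted as closer to *A. anomala*, they were 49.2%, 45.7% and 40.2% before centring.

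Ranks, which no scaling of a library can change, were compared as well. The 10 highest genes of the leaves had 0 members in common. Of the 100 highest, 42 were shared, and 28 of the 100 highest of *A. anomala* were listed at 0 in *A. hirta* against 4 in reverse. Other pairs in the genus shared from 25 (*A. hirta* with *A. nepalensis*) to 60 (*A. anomala* with *A. pubescens*) of their 100 highest genes. Some pairs without *A. hirta* shared fewer than 42, with 41 for *A. anomala* with *A. nepalensis* and 28 for *A. fluviatilis* with *A. nepalensis*. The 10 highest genes of *A. hirta* all ranked within the top 94 of *A. anomala*. Of the 10 highest of *A. anomala*, 6 ranked within the top 99 of *A. hirta*, and the others ranked 150, 3460, 6265 and 8698. The highest 100 genes made up 42.0% of the *A. hirta* sum and 24.9% of the *A. anomala* sum, so the *A. hirta* library was the more concentrated.

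The files pair no gene model with a name. The 20 gene models named here were written down from general knowledge of maize, and neither models nor names could be checked in the files. Of these, 15 form a list of C4 enzymes and transporters. The other 5, further forms of PEP carboxylase and pyruvate orthophosphate dikinase, a Rubisco small subunit and the actin and dehydrogenase genes given above, were recalled with their values in these data known. Of the 15, 11 were above 0 in both leaves and 4 were listed at 0 in *A. hirta* only. Those 4 were among the 10 members at 100 FPKM or more in *A. anomala*, beside the 37.6% of all such genes. Among the 11, *A. hirta* was higher for 4 as deposited (29.2% of all genes) and for 8 relative to the median gene. By construction, as many of all genes lie above the median gene as below it. The median log2 ratio of the 11 was −0.35, beside −0.85 over all genes. At 4-fold, 3 of the 11 were higher in *A. anomala* (26.2% of all genes) and 0 in *A. hirta* (4.06%). Relative to the median gene the calls were again 3 and 0, beside 15.5% and 10.4% of all genes. As deposited the list thus held about as many calls as other genes, and 11 genes are few for such a comparison.

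**Figure D5:**
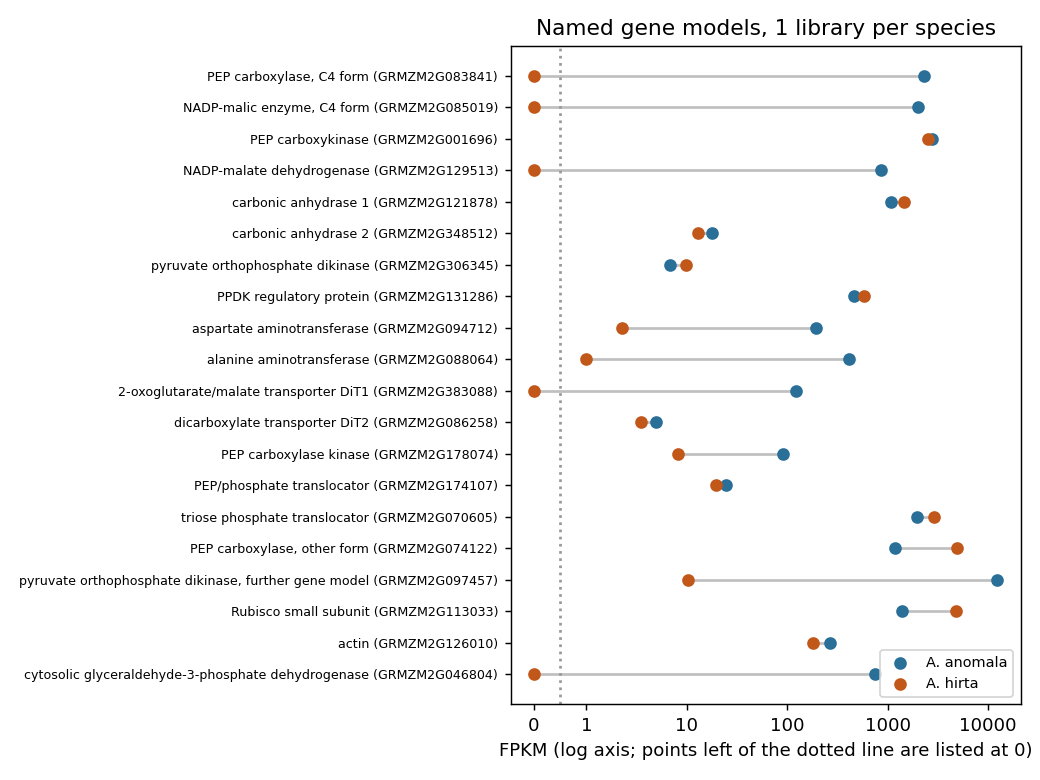
Level in FPKM (x axis, log scale, with genes listed at 0 left of the dotted line) of the 20 named gene models (y axis) in *A. anomala* (blue) and *A. hirta* (orange), 1 library each. PEP carboxykinase, carbonic anhydrase 1, the regulatory protein of pyruvate orthophosphate dikinase and the triose phosphate translocator lie close together, and the C4 form of PEP carboxylase, NADP-malic enzyme and NADP-malate dehydrogenase lie at 0 in *A. hirta* alone.

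Among models for the entry of carbon, a carbonic anhydrase and a PEP carboxylase had high FPKM in both leaves. A further PEP carboxylase model was high in *A. anomala* and listed at 0 in *A. hirta*. Carbonic anhydrase 1 (GRMZM2G121878), which makes the bicarbonate that PEP carboxylase uses, was at 1452 FPKM in *A. hirta* and 1083 in *A. anomala*. Its log2 ratio of 0.42 was 0.44 after quantile normalization. Centring and equal sums raise every ratio of *A. hirta* to *A. anomala*, so neither could turn a positive one negative. Carbonic anhydrase 2 (GRMZM2G348512) was weak in both, at 12.9 and 17.75 FPKM. The C4 form of PEP carboxylase (GRMZM2G083841) was listed at 0 in *A. hirta* and at 2285 FPKM in *A. anomala*. The other form (GRMZM2G074122) was at 4927 FPKM in *A. hirta* and 1181 in *A. anomala*, a log2 ratio of 2.06 and 2.91 relative to the median gene. Summed, both forms came to 4927 FPKM in *A. hirta* and 3467 in *A. anomala*, so total PEP carboxylase of these forms was no lower in *A. hirta*. In *A. fluviatilis* and *A. pubescens* the other form stood at 52.7 and 51.9 FPKM, below the C4 form. In *A. nepalensis* it was at 240 FPKM, above a C4 form at 10.02, which is the order found in *A. hirta*. Of the 8 libraries *A. anomala* alone had both forms above 1000. PEP carboxylase kinase (GRMZM2G178074), which phosphorylates the enzyme and eases its inhibition by malate, was at 8.12 FPKM in *A. hirta* and 89.7 in *A. anomala*. That difference of −3.47 on the log2 scale kept its sign under all 4 scalings.

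The named models of enzymes that make the transported acids had lower values in *A. hirta* or were listed at 0 there. As given above, the whole C4 list as deposited held about as many calls as other genes. NADP-malate dehydrogenase (GRMZM2G129513), the chloroplast enzyme that reduces oxaloacetate to malate, was listed at 0 in *A. hirta* and at 852 FPKM in *A. anomala*. Aspartate aminotransferase (GRMZM2G094712), which makes aspartate, was at 2.25 and 195 FPKM, a log2 ratio of −6.44. Alanine aminotransferase (GRMZM2G088064), which returns the carbon skeleton as alanine, was at 0.99 and 413 FPKM, a log2 ratio of −8.71. In the other 3 *Arundinella* libraries the aspartate enzyme lay between 94.3 and 96.1 FPKM and the alanine enzyme between 84.0 and 653. Both aminotransferase models thus had their lowest value of the 5 *Arundinella* libraries in *A. hirta*. Levels of other members of either enzyme family were not examined.

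Of the decarboxylating enzymes on the C4 list, only PEP carboxykinase was above 0 in both leaves. Levels of other malic enzyme genes are not reported, so a 0 below concerns the named model alone. NADP-malic enzyme (GRMZM2G085019), which releases CO2 from malate, was listed at 0 in *A. hirta* and at 1985 FPKM in *A. anomala*. PEP carboxykinase (GRMZM2G001696), which releases CO2 from oxaloacetate, was at 2494 FPKM in *A. hirta* and 2772 in *A. anomala*. It ranked ninth and fifteenth in its library. Its log2 ratio of −0.15 turned to 0.70 relative to the median gene, so no direction can be given. *A. hirta*, *A. anomala* and *A. fluviatilis* (3160 FPKM) were high for this enzyme, and *A. nepalensis* and *A. pubescens* were under 2 FPKM.

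The regeneration of PEP showed the widest ratio among the named genes above 0 in both leaves. The further gene model for pyruvate orthophosphate dikinase (GRMZM2G097457) was at 12344 FPKM in *A. anomala*, rank 3 there, and at 10.2 in *A. hirta*. The log2 ratio was −10.25, and −9.39 relative to the median gene. The model on the C4 list (GRMZM2G306345) was at 9.90 FPKM in *A. hirta* and 6.76 in *A. anomala*, so the sum of both was 20.1 against 12351 FPKM. Unlike the sum over the PEP carboxylase forms, that over both dikinase models was far lower in *A. hirta*. The regulatory protein that switches this enzyme on and off (GRMZM2G131286) was at 585 FPKM in *A. hirta* and 461 in *A. anomala*. It was lower in the other *Arundinella* libraries, from a listing at 0 in *A. fluviatilis* to 187 FPKM in *A. pubescens*.

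Of the 4 transporters of the chloroplast envelope, 3 were within 2-fold of each other as deposited. The triose phosphate translocator (GRMZM2G070605), the exit of fixed carbon towards the cytosol, was at 2889 FPKM in *A. hirta* and 1945 in *A. anomala*. Its log2 ratio of 0.57 was 1.42 relative to the median gene and 1.90 with equal sums. The dicarboxylate transporter DiT2 (GRMZM2G086258) was at 3.53 and 4.95 FPKM and the PEP/phosphate translocator (GRMZM2G174107) at 19.45 and 24.8 FPKM. Both ratios were negative as deposited (−0.49 and −0.35) and positive relative to the median gene (0.36 and 0.50). The 2-oxoglutarate/malate transporter DiT1 (GRMZM2G383088) was the exception, listed at 0 in *A. hirta* and at 122 FPKM in *A. anomala*. A Rubisco small subunit gene (GRMZM2G113033), of the enzyme that fixes the released CO2, was at 4764 FPKM in *A. hirta* and 1380 in *A. anomala*. This was 3.45-fold higher in *A. hirta*, a log2 ratio of 1.79, short of the 4-fold call. It was past that call relative to the median gene (2.64), with equal sums (3.12) and after quantile normalization (2.02). Another recalled small subunit model is not reported, so these values concern this gene alone.

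Within genes, the libraries also differed in the protein model that held the signal. Of 3253 genes with more than 1 model and above 0 in both leaves, 2150 (66.1%) had the same highest model. In 279 genes (8.6%) no model was above 0 in both. All signal lay on 1 model in 66.2% of these genes in *A. hirta* and in 40.4% in *A. anomala*. The share with the same highest model was 78.5% between *A. anomala* and *A. fluviatilis* and 75.5% between *A. anomala* and *A. pubescens*, and from 60.5% to 66.6% over the 4 pairs with *A. hirta*. These pairs rest on differing lists of genes. Among genes at 10 FPKM or more in both leaves, the share for *A. hirta* and *A. anomala* was 75.6% of 1157.

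The named genes show such shifts. Carbonic anhydrase 1 lay wholly on 1 protein model in *A. hirta*, at 1452 FPKM, while in *A. anomala* that model held 448 FPKM and another held 634. The Rubisco small subunit lay on its first model in *A. hirta*, at 4760 FPKM against 4.03 on the second, and on both in *A. anomala*, at 934 and 445 FPKM. Pyruvate orthophosphate dikinase GRMZM2G306345 had no model above 0 in both leaves, with 9.90 FPKM on 1 model in *A. hirta* and 6.42, 0.20 and 0.14 FPKM on 3 others in *A. anomala*. Since FPKM is scaled by length, a sum per gene can depend on such shifts where the models differ in length. The part of this in the ratios was not tested.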

How the data were processed

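RNA of leaves from 8 grass species was sequenced, 1 library each, and libraries were matched to species by column name. The FPKM values are those the authors deposited in 1 table. RSEM estimated them, per the submitters' processing notes. Software versions, the aligner and how fragments of these grasses were tied to maize models were not given in the sources used here. The tool shares out fragments between look-alike sequences by a statistical estimate, which can move signal within a gene family. Sequence divergence from maize can lower a gene's value, down to 0. Counts and depth are unknown.

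The 36698 lines were summed to 26274 genes by removing the protein suffix, and 872 lines carried no such suffix. Of the names, 96.8% occur in a deposited cross-reference that holds identifiers only. Log2 ratios were taken over genes above 0 in both libraries, with no pseudocount. Calls used a fixed fold of 4 or 100 FPKM against 0. The 4 scalings of the named genes were values as deposited, centring on the median ratio, equal sums and quantile normalization. Ratio and quantile steps were tested on simulated data with known shifts. Tools were matplotlib 3.10.9, scipy 1.17.1, pandas 2.3.3 and numpy 2.4.6 under Python 3.11.15.

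Named genes were the C4 list with 5 recalled models. Further recalled lists are not reported, since no source at hand names their models. Of genes without a name in the files, at most 2 are printed in each direction. These are the strongest gene listed at 0 in the other library and the largest ratio among genes of 100 FPKM or more. The comparison and lists were chosen with earlier results of these data known.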

Additional observations from a re-analysis of the deposited data

How the results depend on the processing

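With a minimum of 10, 50 or 200 FPKM in place of 100, the genes listed at 0 in the other leaf numbered 151, 41 and 9 for *A. hirta* and 5650, 1367 and 198 for *A. anomala*, and with each library rescaled to a sum of 1000000 there were 61 and 682. The median log2 ratio was −0.749 with at least 1 FPKM in both, −0.393 with at least 10, −0.692 with a pseudocount of 1 and −0.808 with the highest model per gene. It was 0 by construction after centring, and it turned positive with equal sums (0.475) and quantile normalization (0.207), so the overall direction rests on how the libraries are scaled. Genes at least 4-fold higher in *A. hirta* numbered 257 and 63 with at least 1 and 10 FPKM in both, where fewer genes remain, and 229 with a pseudocount of 1. They numbered 1595 with equal sums, 1018 after centring and 1212 after quantile normalization. Those higher in *A. anomala* numbered 286 with at least 10 FPKM, 1121 with equal sums, 1509 after centring and 1329 after quantile normalization. Spearman's rho was 0.568 with at least 10 FPKM in both. The share of genes with the same highest model was 75.6% with that minimum. After centring, 8 C4 members were higher in *A. hirta* and 3 in *A. anomala*. With the highest model per gene in place of the sum, 6 C4 members were higher in *A. hirta* and 5 in *A. anomala*, so the leaf with more of them turned. With at least 1 FPKM in both, 1818 genes were 4-fold higher in *A. anomala*. In all, 33 recalculated values lay within 1.5 times a count, within the binomial interval of a share or median, or within 0.005 of rho. The 1818 genes and the C4 counts of 6 and 5 were among them, although those C4 counts turned the direction. Another 26 values moved outside these bounds, and 2, the medians that turned positive, were reversed. No paired analysis was possible because each species has 1 library. Without counts, the precision of a level and the limit behind a 0 cannot be given.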
